A study of Mus musculus with 12 samples.

Results

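The response of the adrenal medulla of normally colonized mice to insulin was measured as the difference between 3 colonized mice given insulin and 3 colonized mice given saline. These are 6 of the 12 arrays of the study, and they were chosen by their titles and by the gut microbiota status in their labels. The insulin group was made up of animals 4, 5 and 6 and the saline group of animals 1, 2 and 3. All were male C57Bl6 mice that had been fasted for 3 h with free access to water, and no age is stated in their labels. Each received 2 IU/kg of human insulin (Humulin) or an equal volume of saline into the peritoneum, and the adrenal medullae were taken 90 min later. The other 6 arrays held germ-free mice of the same sex and strain, 3 given insulin and 3 given saline, and they enter below only for the error estimate and for a comparison of the response. The labels state 3 individual samples for each group, so each array was taken as 1 animal. Expression was read on Affymetrix arrays as log2 values, on which a difference of 1 is a 2-fold change. A change below is the mean of the insulin arrays minus the mean of the saline arrays, its error is the standard error from limma, and a gene was called at an adjusted p under 0.05.

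Blood glucose values are not analysed here. Insulin lowers blood glucose, and the adrenal medulla is part of the defence against a low glucose. Splanchnic nerve endings release acetylcholine and peptides such as PACAP onto chromaffin cells, which depolarise, take up calcium and secrete adrenaline together with the peptides stored in the same granules. The same stimulus acts through calcium, cyclic AMP and MAP kinases on transcription. Immediate early genes of the FOS, EGR and NR4A families respond first, and genes for peptides, enzymes and the phosphatases that end MAP kinase signalling follow. Glucose itself acts on transcription through the factors ChREBP and MondoA, whose best known targets are the arrestin family genes Txnip and Arrdc4, and insulin restrains FOXO factors.

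The dissected tissue carried the markers of its label. Th, the rate-limiting enzyme of catecholamine synthesis, stood at 13.91, 13.87 and 13.56 in the insulin animals (4, 5 and 6) and at 13.59, 13.04 and 13.57 in the saline animals (1, 2 and 3). Adrenal cortex transcripts were present at high levels too. Star, the cholesterol carrier of steroid synthesis, was between 13.59 and 13.62 in insulin animals and between 13.29 and 13.67 in saline animals. The 11 cortex markers averaged 11.82, 11.77 and 11.83 in insulin animals and 11.63, 11.54 and 11.81 in saline animals. Saline animal 2 stood apart. Its array correlated at 0.954 and 0.968 with the other saline arrays, whereas the insulin arrays correlated with each other at 0.987 to 0.993. The mean of 14 general adipocyte markers was 6.94, 7.45 and 9.25 in insulin animals, against 7.25, 10.68 and 9.57 in saline animals. For 13 hepatocyte markers it was 6.01, 6.15 and 6.36 in insulin animals, against 5.89, 10.79 and 7.74 in saline animals. Transcripts of fat and liver were thus high in saline animals 2 and 3 and low in saline animal 1, and fat transcripts were also raised in insulin animal 6. The 11 fibroblast markers averaged 9.59 and the 10 neuron markers 8.10 in saline animal 2, against 7.27 to 8.44 and 6.33 to 6.60 in insulin animals. Saline animals 1 and 3 lay within those ranges, at 7.44 and 8.18 for fibroblast and 6.52 and 6.36 for neuron markers. The 14 chromaffin markers differed less, with means of 10.93, 10.68 and 10.40 after insulin and 10.75, 10.38 and 10.52 after saline. In such bulk tissue, fewer cells of a type and less RNA per cell cannot be told apart.

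**Figure D1:**
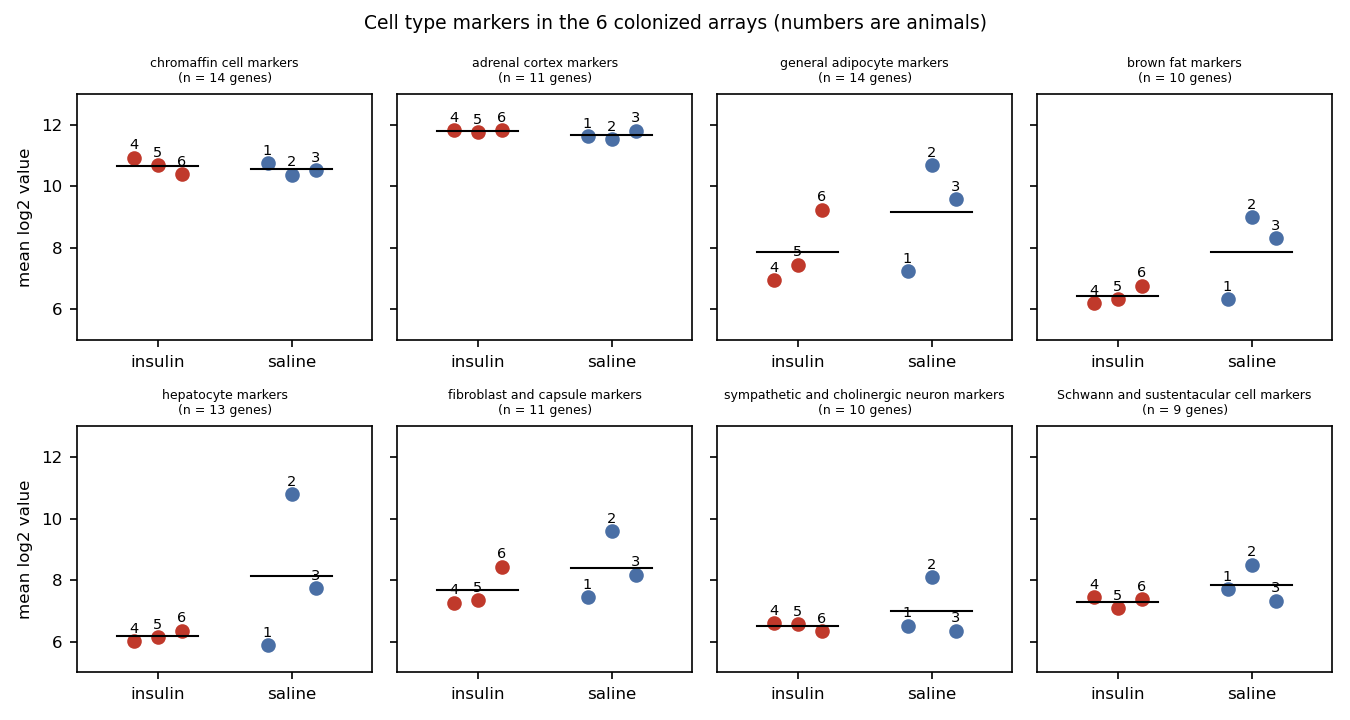
Mean log2 value of the markers of 8 cell types in each of the 6 colonized arrays, insulin on the left and saline on the right of each panel. Points are animals with their numbers, lines are group means, and saline animals 2 and 3 stand high for fat and liver markers while chromaffin and cortex markers are close in all 6 arrays.

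Of 19505 genes, 29 (0.149%) were called between insulin and saline, 21 higher (0.108%) and 8 lower (0.0410%) after insulin. Among them 28 carried informative names, and the remaining one was Gm13889, a predicted gene. An unadjusted p under 0.05 was reached by 2294 genes (11.8%), and for 2742 genes (14.1%) the values of the insulin and saline groups did not overlap. At an adjusted p under 0.10 the count was 73 (0.374%), 49 of them higher and 24 lower. The number of calls depended on single animals of both colonization states, since all 12 arrays set the error. It was 70 without insulin animal 6, 49 without saline animal 1, 45 without saline animal 3 and 19 without saline animal 2. It was 3 without insulin animal 4 and 2 without insulin animal 5. Without single germ-free animals it was 13 (animal 10), 10 (animal 12), 4 (animal 7) and 1 (each of animals 8, 9 and 11). Fitted on the 6 colonized arrays alone, limma called 0 genes, with 1373 at an unadjusted p under 0.05.

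**Figure D2:**
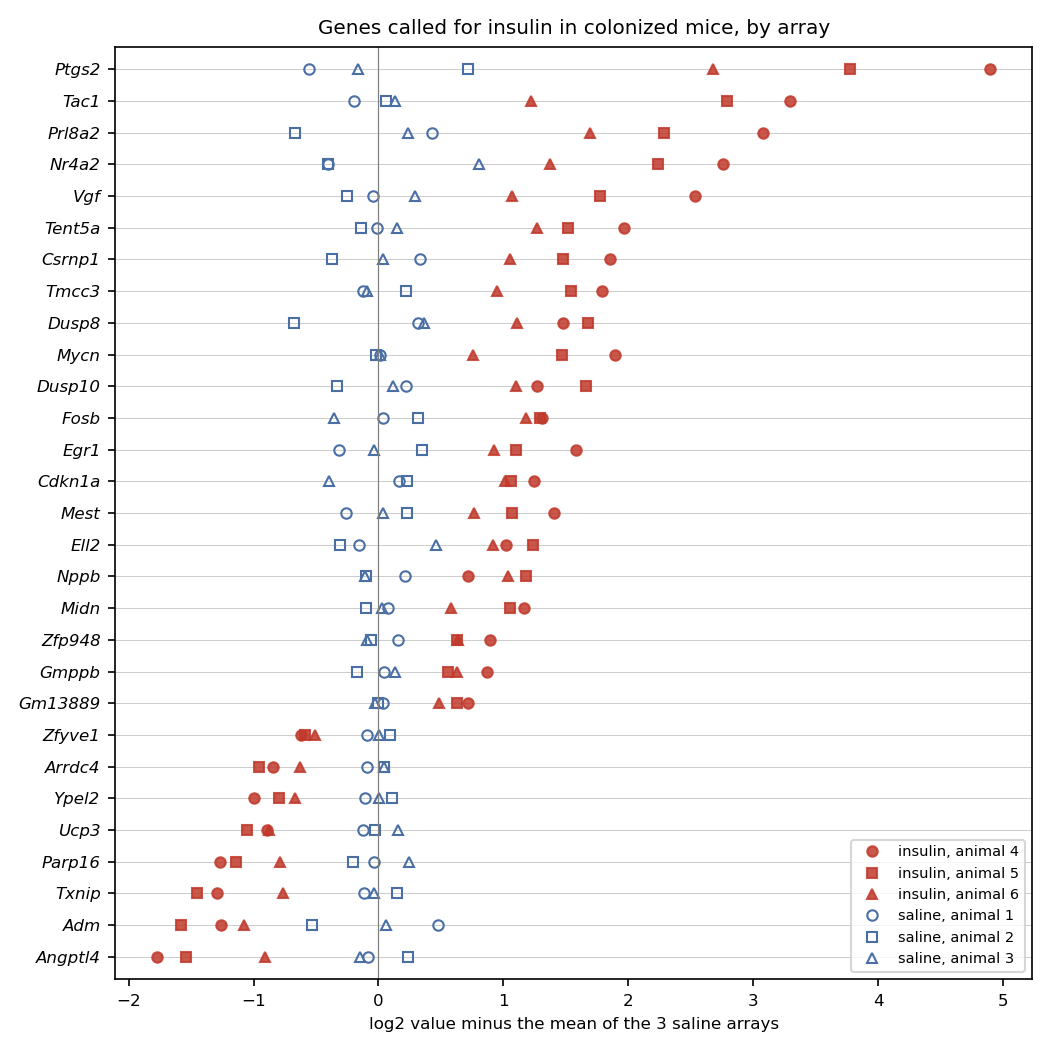
Log2 value of each of the 29 called genes in the 6 colonized arrays, set against the mean of the 3 saline arrays (0 on the horizontal axis). Filled red symbols are insulin animals and open blue symbols saline animals, and the filled symbols of each gene lie on one side of the open ones, with insulin animal 6 most often the nearest to them.

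The called gene with the largest change was Ptgs2, the inducible cyclooxygenase that starts prostaglandin synthesis. It was at 10.06, 8.93 and 7.84 in insulin animals 4, 5 and 6, against 4.61, 5.87 and 5.00 in saline animals 1, 2 and 3. The lowest insulin animal lay well above the highest saline animal, and 1 of the 3 saline values (animal 1) was below the median of the negative control probe sets of its array. The change was 3.78 ± 0.46 (SE, n = 3 arrays a group, limma adjusted p = 0.0189), which corresponds to 13.8-fold, or 13.4-fold with that dim value set at the level of its controls. No other enzyme of the 12 measured in prostaglandin synthesis was called, and the median change of that list was 0.03. Hpgd, which inactivates prostaglandins, had values of 7.18, 6.90 and 8.00 after insulin and 8.22, 9.10 and 8.13 after saline, a change of -1.12 ± 0.32 with an adjusted p of 0.234. Of 9 prostaglandin receptors 0 were called by limma and 2 had an unadjusted p under 0.05, both lower (5.59% of all genes). The lowest of them, Ptger3, had a change of -0.65 ± 0.18 (adjusted p = 0.224).

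Among precursors of secreted peptides, 2 of 19 were called, Tac1 and Vgf, against 0.149% of all genes. Tac1, which encodes substance P and neurokinin A, was at 8.38, 7.88 and 6.31 after insulin, against 4.90, 5.15 and 5.22 after saline. The saline animals were close together near the level of the negative controls, and the insulin animals spread over more than 2 log2 units without reaching them. The change was 2.43 ± 0.41 (adjusted p = 0.0463). Vgf, a granin-like protein of secretory granules that is cut into several peptides, was at 9.63, 8.87 and 8.17 after insulin and at 7.06, 6.85 and 7.39 after saline, a rise of 1.79 ± 0.28 (adjusted p = 0.0429). The order of the insulin animals was the same for both genes, with animal 4 highest and animal 6 lowest. Gal, the galanin precursor, showed that order too, with 11.08, 10.52 and 9.78 after insulin against 9.58, 8.70 and 9.40 after saline, but its change of 1.23 ± 0.32 was not called (adjusted p = 0.188). Cartpt had a change of 0.72 ± 0.21 (adjusted p = 0.234) with no overlap between the groups. Npy, the precursor of neuropeptide Y, had a change of 0.58 ± 0.25 (adjusted p = 0.401) and Penk, the enkephalin precursor, of -0.49 ± 0.42 (adjusted p = 0.654), and both overlapped between the groups. Without saline animal 2, the change of Penk was 0.05, that of Tac1 2.46 and that of Vgf 1.67. In that fit 0 of the 19 precursors were called by limma (adjusted p = 0.0846 for Tac1 and 0.0840 for Vgf).

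Hormone genes outside that list were called as well. Nppb, the precursor of the natriuretic peptide BNP, was at 5.19, 5.66 and 5.51 after insulin, against 4.68, 4.37 and 4.37 after saline. All 3 saline values were under the median of the negative controls. The fitted change was 0.98 ± 0.13 (adjusted p = 0.0224), and set against the negative control level of the saline arrays Nppb was at least 1.63-fold higher. Prl8a2, a member of the prolactin family known from the decidua, was at 8.59, 7.80 and 7.21 after insulin and at 5.94, 4.85 and 5.75 after saline. That was a rise of 2.35 ± 0.38 (adjusted p = 0.0435), and the mean level after insulin was 5.11 times that after saline.

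Vgf was also the 1 called member of 14 granins and prohormone processing genes, where 0.149% of all genes were called. None of the 16 measured genes of catecholamine synthesis, storage and breakdown was called by limma. An unadjusted p under 0.05 was reached by 5 of them, 2 higher and 3 lower (6.17% and 5.59% of all genes). Th had a change of 0.38 ± 0.16 (adjusted p = 0.391), Dbh of 0.29 ± 0.19 (adjusted p = 0.555) and Pnmt, which turns noradrenaline into adrenaline, of 0.51 ± 0.27 (adjusted p = 0.477). Ddc had a change of 0.01 ± 0.18. In Th, Dbh and Pnmt the lowest of the 6 arrays was saline animal 2, and without it the changes of Th and Pnmt were both 0.20. Gch1, which makes the cofactor of Th, had values of 10.75, 10.48 and 10.01 after insulin against 10.19, 9.41 and 9.88 after saline, so that the groups overlapped (0.59 ± 0.20, adjusted p = 0.307). Slc6a2, the noradrenaline transporter, and Sv2c, a synaptic vesicle protein, had changes of -1.10 ± 0.72 and -1.31 ± 0.70 and were not called. In saline animal 2 they stood at 11.73 and 8.97, against 7.69 to 8.60 and 5.21 to 5.49 in the other 5 animals, and without it the changes were 0.10 and -0.11. That array also had the neuron marker Prph at 10.07, where the others lay between 5.03 and 6.24.

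Chga and Chgb, the main granins, had changes of 0.38 ± 0.18 and 0.20 ± 0.14 and were not called. Of 23 genes of regulated exocytosis 0 were called by limma and 2 reached an unadjusted p under 0.05. Syt7, a calcium sensor of granule fusion, was at 9.56, 9.48 and 9.23 after insulin, against 9.03, 8.54 and 9.02 after saline, a change of 0.56 ± 0.14 (adjusted p = 0.182). The receptors and channels of the splanchnic input gave 0 calls among 24 genes by limma, with 5 at an unadjusted p under 0.05 (11.8% of all genes). The lowest was Chrna5, a nicotinic receptor subunit, at 3.89, 3.68 and 3.74 after insulin against 4.76, 6.11 and 4.32 after saline (-1.29 ± 0.35, adjusted p = 0.210). Its insulin values and 1 saline value were below the negative controls, and with these set at the control level the change was -0.48. Adcyap1r1, the PACAP receptor, had a change of 0.60 ± 0.26 (adjusted p = 0.398).

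Transcription factors of the immediate early class were called in several families. Fosb, an AP-1 subunit, was at 8.48, 8.46 and 8.35 after insulin, against 7.21, 7.49 and 6.82 after saline. The insulin animals were close together, and the rise of 1.26 ± 0.17 had an adjusted p of 0.0224. Egr1, the zinc finger factor induced by growth and depolarising stimuli, was at 11.70, 11.22 and 11.04 after insulin and at 9.80, 10.47 and 10.08 after saline (1.20 ± 0.19, adjusted p = 0.0429). Nr4a2, the orphan nuclear receptor NURR1 that can drive the Th gene, was at 11.26, 10.74 and 9.87 after insulin and at 8.10, 8.10 and 9.30 after saline. Its rise was 2.12 ± 0.36 (adjusted p = 0.0463). Saline animal 3 was the highest of its group and insulin animal 6 the lowest, and these lay closest to each other. Csrnp1, a nuclear protein first found as a target of AXIN, was at 8.65, 8.27 and 7.85 after insulin against 7.13, 6.42 and 6.83 after saline (1.46 ± 0.21, adjusted p = 0.0325). Mycn, the MYC relative of neural crest cells, was nearly constant after saline at 5.77, 5.73 and 5.76 and was at 7.65, 7.22 and 6.51 after insulin (1.37 ± 0.22, adjusted p = 0.0435).

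Most members of these families that were not called had changes above 0. All 10 AP-1 genes had changes above 0, with a median of 0.62, while 51.0% of all genes did and their median was 0.00. For 8 of the 10 the unadjusted p was under 0.05 in the higher direction, against 6.17% of all genes. Fosl1 (0.84 ± 0.15, adjusted p = 0.0516) and Maff (0.76 ± 0.13, adjusted p = 0.0507) missed the threshold by little. Fos itself was at 9.07, 7.88 and 8.02 after insulin, against 7.86, 7.89 and 7.46 after saline. It thus overlapped between the groups and was high in insulin animal 4 alone (0.59 ± 0.26, adjusted p = 0.399). All 6 EGR and NAB genes had changes above 0 with a median of 0.72, among them Egr2 with 0.79 ± 0.16 (adjusted p = 0.101) and Egr3 with 0.65 ± 0.15 (adjusted p = 0.129). Of the NR4A receptors, Nr4a1 was at 12.32, 11.96 and 11.69 after insulin against 10.70, 10.44 and 11.31 after saline (1.17 ± 0.21, adjusted p = 0.0525), and Nr4a3 had a change of 0.88 ± 0.35 with overlapping groups. Among 34 other immediate early genes, 2 were called (Csrnp1 and Mycn), against 0.149% of all genes. Of the 34, 31 had a change above 0 and 18 did not overlap in the higher direction, where 7.52% of all genes did. Ier3, an early response gene of cell survival, had the highest change of the 34 (1.47 ± 0.26, adjusted p = 0.0516), above the called Csrnp1 and Mycn. Plk3 had a change of 1.13 ± 0.24 (adjusted p = 0.108). The 3 below 0 were Klf10, Rasd1 and Ccn2. Ccn2, a secreted matrix protein, was at 9.41, 8.92 and 9.79 after insulin, against 10.19, 10.71 and 9.86 after saline, without overlap (-0.88 ± 0.22, adjusted p = 0.179).

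Without saline animal 2, the medians were 0.65 for AP-1, 0.53 for EGR and NAB, 1.34 for NR4A and 0.37 for the other immediate early genes. Each therefore kept its sign in the absence of that array, while the numbers of called members were 1 (Fosb), 1 (Egr1), 0 and 0 by limma. The list of cyclic AMP signalling and CREB target genes had 13 of 29 changes above 0, a median of -0.04 and 0 called genes by limma. It held 9 genes at an unadjusted p under 0.05, 5 higher and 4 lower (6.17% and 5.59% of all genes). Its high end held Sik1, a kinase induced by cyclic AMP (9.95, 9.28 and 8.93 after insulin against 7.85, 7.61 and 8.41 after saline, 1.43 ± 0.27, adjusted p = 0.0720), Gem (1.34 ± 0.28, adjusted p = 0.102) and Per1 (0.87 ± 0.15, adjusted p = 0.0517). Its low end held Pck1 and Ppargc1a, which are also fat markers. Pck1 was at 5.93, 6.08 and 7.95 after insulin and at 6.45, 11.62 and 10.10 after saline, so it too was highest where the adipocyte markers were.

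Of the MAP kinase phosphatases and ERK feedback genes, 2 of 17 were called, Dusp10 and Dusp8, against 0.149% of all genes. Dusp10, which removes phosphate from p38 and JNK, was at 10.00, 10.39 and 9.83 after insulin, against 8.95, 8.40 and 8.84 after saline. Its rise of 1.34 ± 0.16 (adjusted p = 0.0189) was the second strongest of all genes by p. Dusp8, which acts on the same kinases, was at 10.07, 10.27 and 9.70 after insulin and at 8.91, 7.92 and 8.96 after saline (1.42 ± 0.23, adjusted p = 0.0435). The lowest value of each gene was that of saline animal 2, and without it the changes were 1.18 for Dusp10 and 1.08 for Dusp8, both still called. Dusp5, a nuclear ERK phosphatase, had a change of 1.24 ± 0.22 (adjusted p = 0.0525), Dusp14 of 1.45 ± 0.36 (adjusted p = 0.170) and Dusp1 of 0.83 ± 0.17 (adjusted p = 0.101). The list had a median change of 0.25, with 13 of 17 changes above 0, against 51.0% of all genes.

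Cdkn1a, the cell cycle inhibitor p21 and a target of p53 and of glucocorticoids, was at 10.14, 9.95 and 9.90 after insulin, against 9.06, 9.12 and 8.50 after saline (1.10 ± 0.19, adjusted p = 0.0463). It was the 1 called gene among 15 glucocorticoid target genes, whose median change was 0.15 (0.149% of all genes were called). Mt2, a metallothionein on that list, was at 13.25, 13.22 and 13.03 after insulin and at 12.43, 11.69 and 12.64 after saline without reaching the threshold (0.92 ± 0.21, adjusted p = 0.136). Midn, which carries nuclear proteins to the proteasome, rose by 0.93 ± 0.15 (adjusted p = 0.0435). Ell2, an elongation factor of RNA polymerase II that is prominent in secretory cells, was at 9.47, 9.70 and 9.37 after insulin against 8.30, 8.15 and 8.91 after saline and rose by 1.06 ± 0.17 (adjusted p = 0.0435).

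The smallest adjusted p of all belonged to Tent5a, a poly(A) polymerase that lengthens the tails of messenger RNAs of secreted proteins. It was at 8.90, 8.45 and 8.20 after insulin, against 6.93, 6.80 and 7.08 after saline. The groups were separated by more than 1 log2 unit, and the rise of 1.58 ± 0.16 (adjusted p = 0.00681) was the only call that held when any 1 of the 12 arrays was left out. Mest, an imprinted gene expressed from the paternal copy, was at 11.99, 11.66 and 11.35 after insulin and at 10.32, 10.82 and 10.62 after saline (1.08 ± 0.17, adjusted p = 0.0429). Tmcc3, an endoplasmic reticulum membrane protein, rose by 1.42 ± 0.23 (adjusted p = 0.0435). The smallest rises among the named genes were those of Zfp948, a zinc finger protein, by 0.72 ± 0.12, and Gmppb, an enzyme that makes the mannose donor of glycoproteins, by 0.68 ± 0.12 (adjusted p = 0.0463 for each).

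Of the 8 genes that fell, 2 were on the list of alpha-arrestins and ChREBP and MondoA genes, 2 on that of PPAR targets and 1 on that of the adrenomedullin system. Txnip, the arrestin family protein that restrains glucose uptake and binds thioredoxin, was at 10.95, 10.79 and 11.48 after insulin, against 12.13, 12.40 and 12.21 after saline. It fell by 1.17 on the log2 scale with a standard error of 0.16 (adjusted p = 0.0224), to 0.444 of its level after saline. Arrdc4, its closest relative, was at 7.21, 7.10 and 7.43 after insulin and at 7.97, 8.10 and 8.10 after saline (-0.81 ± 0.13, adjusted p = 0.0429). Arrdc4 was not called without saline animal 2 (-0.79, adjusted p = 0.0795) or with the mean of the adipocyte markers as a covariate (-0.73, adjusted p = 0.141). Txnip and Arrdc4 were the 2 called genes among 14 alpha-arrestin, ChREBP and MondoA genes, where 0.149% of all genes were called. That list as a whole had 9 changes below 0 and a median of -0.16, or -0.02 without saline animal 2. Thrsp, a ChREBP target of fat, was at 8.85, 8.89 and 10.45 after insulin against 8.98, 11.51 and 10.91 after saline (-1.07 ± 0.56, adjusted p = 0.473). Like the adipocyte markers, it was highest in saline animals 2 and 3 and insulin animal 6.

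Angptl4, the fasting-induced inhibitor of lipoprotein lipase, was at 8.42, 8.65 and 9.28 after insulin, against 10.11, 10.43 and 10.04 after saline (-1.41 ± 0.19, adjusted p = 0.0224). Ucp3, a mitochondrial carrier induced by fatty acids, was at 6.21, 6.05 and 6.23 after insulin and at 6.98, 7.07 and 7.26 after saline (-0.94 ± 0.13, adjusted p = 0.0224). Both genes are PPAR targets that fat also expresses. With the adipocyte marker mean as a covariate, the changes were -1.20 for Angptl4 (adjusted p = 0.0383), -0.87 for Ucp3 (adjusted p = 0.0678) and -1.01 for Txnip (adjusted p = 0.0516). The cortex marker mean as a covariate left 0 genes called by limma, with 1347 at an unadjusted p under 0.05.

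The PPAR and fatty acid oxidation list is given as a whole, with Angptl4 and Ucp3 counted in it. Only these 2 of its 23 genes were called. Of the 23, 20 had changes below 0 and the median was -0.44, or -0.36 without saline animal 2. An unadjusted p under 0.05 by limma was reached in the lower direction by 13, against 5.59% of all genes. For 8 of the 23 the groups did not overlap in the lower direction, against 6.54% of all genes. In germ-free mice the list went the other way, with 17 of the 23 changes above 0 and a median of 0.27. Angptl4 (-0.42) and Ucp3 (-0.12) stayed below 0 there. Fat markers turned as the list did. Their median was -1.10 in colonized and 0.68 in germ-free mice for general adipocyte markers, and -1.32 and 1.45 for brown fat markers. The part of fat in the turn of the list was not tested. Pdk4, the kinase that shuts off pyruvate dehydrogenase in fasting, was at 6.82, 7.01 and 7.53 after insulin, against 7.42, 10.10 and 9.52 after saline (-1.89 ± 0.53, adjusted p = 0.224). Ehhadh, an enzyme of peroxisomal oxidation, had a change of -1.28 ± 0.36 (adjusted p = 0.227) and Fabp3, a fatty acid binding protein, of -1.32 ± 0.54 (adjusted p = 0.374). These 3 genes were highest in saline animal 2, where fat and liver transcripts were most abundant, and the part of that tissue in their changes was not tested.

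Adm, the precursor of the vasodilator adrenomedullin first isolated from a tumour of chromaffin cells, was at 8.10, 7.78 and 8.29 after insulin and at 9.84, 8.82 and 9.42 after saline. It fell by 1.31 on the log2 scale with a standard error of 0.21 (adjusted p = 0.0435), and without saline animal 2, the lowest of its group, the change was -1.57 (adjusted p = 0.0107). It was the 1 called gene among 15 of the adrenomedullin system and hypoxia targets, where 0.149% of all genes were called. The median of that list was -0.10, or 0.05 without saline animal 2. Ramp2, the partner of the adrenomedullin receptor, had a change of -0.52 ± 0.20 (adjusted p = 0.346). Parp16, an ADP-ribosyltransferase of the endoplasmic reticulum, was at 7.04, 7.17 and 7.52 after insulin against 8.27, 8.11 and 8.56 after saline (-1.07 ± 0.15, adjusted p = 0.0224). Smaller falls were those of Ypel2 (-0.82 ± 0.12, adjusted p = 0.0347) and of Zfyve1, a phosphoinositide-binding protein of the endoplasmic reticulum (-0.57 ± 0.09, adjusted p = 0.0429).

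The list of insulin signalling components and FOXO targets gave 0 calls among 27 genes by limma, with 8 lower and 2 higher at an unadjusted p under 0.05 (5.59% and 6.17% of all genes). Its median was -0.07, or -0.14 without saline animal 2. Fbxo32, a muscle atrophy gene, was at 6.06, 5.96 and 6.20 after insulin, against 7.04, 7.36 and 6.76 after saline (-0.98 ± 0.17, adjusted p = 0.0507). Ccng2, a FOXO-driven cyclin, was at 7.96, 8.10 and 8.21 after insulin against 9.00, 9.52 and 8.72 after saline (-0.99 ± 0.18, adjusted p = 0.0584). Neither gene overlapped between the groups. Irs1, the insulin receptor substrate, had a change of -0.77 ± 0.25 (adjusted p = 0.278). Among 31 genes of glucose transport, glycolysis and glycogen 0 were called by limma, with 4 higher and 6 lower at an unadjusted p under 0.05. Changes were below 0 for 21 of the 31, and the median was -0.16, or -0.06 without saline animal 2. The lowest was Pygl, the liver form of glycogen phosphorylase, at 7.15, 7.11 and 7.88 after insulin against 7.48, 9.74 and 8.72 after saline (-1.27 ± 0.43, adjusted p = 0.305). The groups did not overlap in the lower direction for 5 of the 31 genes, Ppp1r3b, Ppp1r3d, Aldoc, Gbe1 and Pfkl, against 6.54% of all genes. Of these, Ppp1r3b, a glycogen-targeting subunit of protein phosphatase, had the lowest change (-0.81 ± 0.29, adjusted p = 0.329). They did not overlap in the higher direction for 4 of the 31, Slc2a1, Slc2a3, Hk2 and Pfkfb4, against 7.52% of all genes. The glucose transporter Slc2a1 was at 10.55, 10.76 and 10.53 after insulin and at 9.90, 9.81 and 10.10 after saline (0.67 ± 0.13, adjusted p = 0.0636).

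Cholesterol synthesis and its SREBP control gave 0 calls among 22 genes by limma. At an unadjusted p under 0.05, 10 were higher and 0 lower (6.17% and 5.59% of all genes). Changes were above 0 for 21 of the 22, against 51.0% of all genes, with a median of 0.34. Idi1, which isomerises the isoprene unit, was at 11.54, 11.17 and 10.71 after insulin, against 10.37, 8.50 and 10.18 after saline (1.46 ± 0.39, adjusted p = 0.208). Hsd17b7 had a change of 1.03 ± 0.26 (adjusted p = 0.185). In both the low value of saline animal 2 made up a large share of the difference, and without it the changes were 0.86 and 0.69, the median of the list was 0.22 and 16 genes were above 0. Steroid synthesis itself had a median of 0.08 (-0.001 without saline animal 2) and 0 calls among 12 genes by limma. An unadjusted p under 0.05 was reached by 4 of them, against 11.8% of all genes. In 26 inflammatory cytokine and NF-kB feedback genes there were also 0 calls by limma. Changes were above 0 for 21 of them, and 9 were higher at an unadjusted p under 0.05 (51.0% and 6.17% of all genes). The chemokine Ccl7 was at 6.76, 6.64 and 6.50 after insulin and at 5.86, 5.59 and 6.01 after saline (0.81 ± 0.16, adjusted p = 0.0770).

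Just outside the threshold, at adjusted p values of 0.0516 or less, lay further genes whose groups did not overlap. Trib1, a pseudokinase that feeds back on MAP kinase signalling, was at 7.51, 7.17 and 7.58 after insulin, against 6.63, 6.76 and 6.67 after saline (0.73 ± 0.13). Hhip, which binds and restrains hedgehog ligands, was at 10.79, 10.32 and 10.41 after insulin and at 9.21, 9.54 and 9.45 after saline (1.10 ± 0.19). Emd, a protein of the inner nuclear membrane, had a change of 0.56 ± 0.10 and Lrrc10b of 1.21 ± 0.21. In the other direction, Fam214a had a change of -0.89 ± 0.15, and Exog, a mitochondrial nuclease, of -0.66 ± 0.12. Rassf6 had all 6 values below the negative controls, so no size is given for it.

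Heat shock genes gave 0 calls among 14 by limma, with 1 at an unadjusted p under 0.05. Hspa1a and Hspa1b, near-identical copies whose probe sets may share signal, stood at 11.01 and 11.20 in saline animal 3, where the other 5 animals lay between 7.15 and 8.13. Lists of clock genes (median -0.05, 18 genes), the endoplasmic reticulum stress response (median 0.07, 19 genes), tachykinin receptors and breakdown (median 0.20, 5 genes) and respiratory chain subunits (median -0.17, 23 genes) had 0 called genes by limma, with 7, 3, 0 and 2 at an unadjusted p under 0.05. Without saline animal 2 these medians were -0.13, -0.01, 0.10 and -0.08. Of all genes, 11.8% reached an unadjusted p under 0.05. In the respiratory chain list 20 of 23 changes were below 0, while 51.0% of all genes were above 0.

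**Figure D3:**
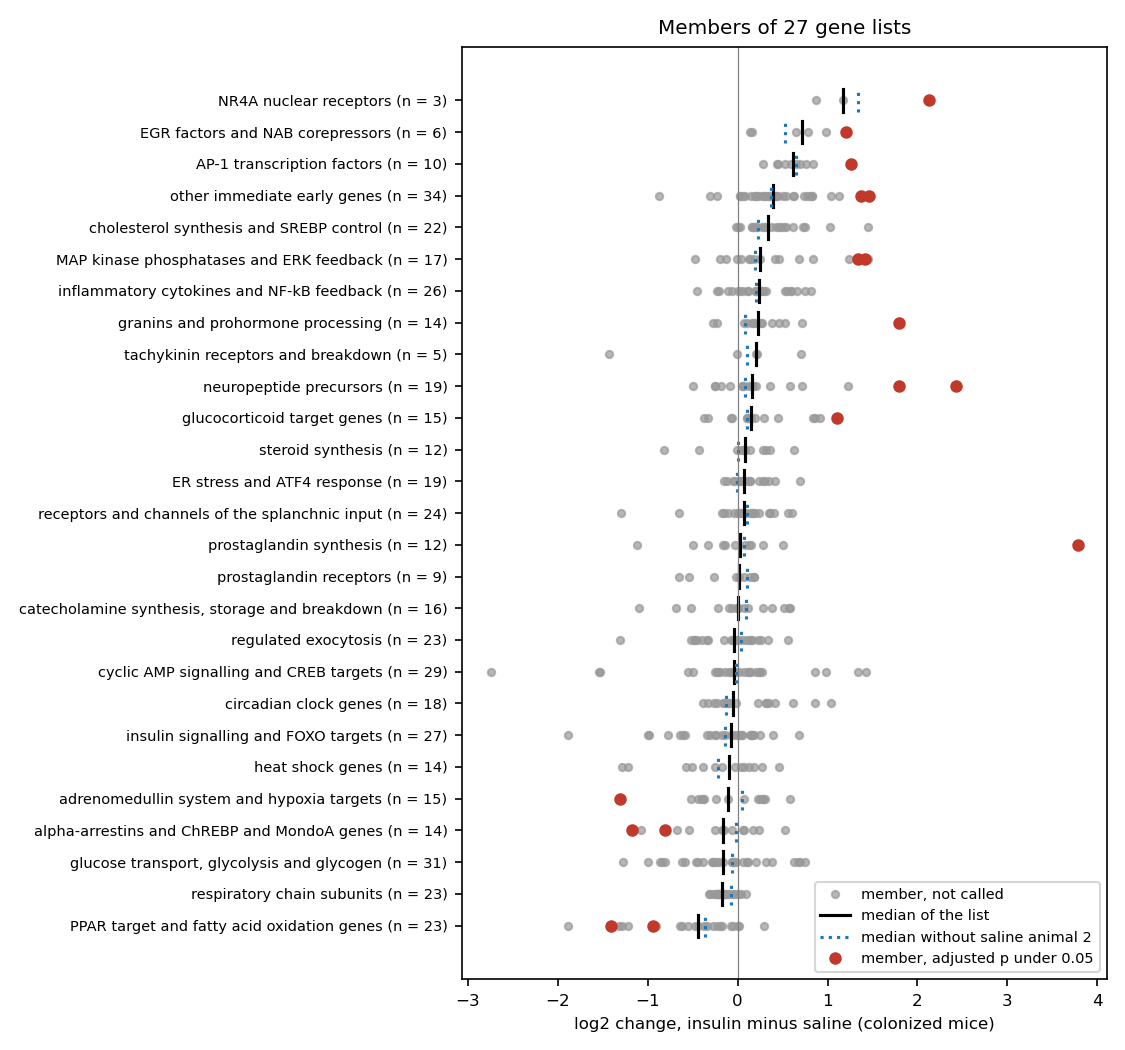
Log2 change (insulin minus saline, colonized mice) of each measured member of 27 gene lists, 1 row per list with its number of measured genes. Red points are called genes, black bars list medians and dotted blue bars the medians without saline animal 2, and the NR4A, EGR and AP-1 lists lie highest and the PPAR list lowest.

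The largest changes of all that were not called belonged to liver and brown fat. Alb, serum albumin, was at 5.86, 6.05 and 6.32 after insulin, against 5.61, 13.23 and 10.53 after saline (-3.71 ± 1.55, adjusted p = 0.385). Ucp1, the uncoupling protein of brown fat, was at 4.08, 4.35 and 5.74 after insulin and at 4.02, 10.97 and 10.35 after saline (-3.72 ± 1.33, adjusted p = 0.324). In each, saline animal 1 lay below every insulin animal. Mup3 and Mup9, major urinary proteins made in liver and members of a family of near-identical copies, had changes of -3.90 ± 1.39 and -4.20 ± 1.65 and were likewise highest in saline animals 2 and 3. All 3 insulin values and 1 saline value of Mup3 were below the negative controls, as were 2 insulin values and 1 saline value of Ucp1 and 1 insulin value of Mup9. With those values set at the control level the changes were -3.26 for Mup3, -3.60 for Ucp1 and -4.10 for Mup9. The list medians were -1.63 for hepatocyte (13 genes), -1.32 for brown fat, -1.10 for general adipocyte, -0.60 for fibroblast and -0.47 for Schwann and sustentacular markers. Without saline animal 2 they were -0.32, -0.82, -0.46, -0.16 and -0.17. None of these markers was called by limma, and in the same order 3, 8, 3, 1 and 2 of them were lower at an unadjusted p under 0.05. Among all genes that share was 5.59%.

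The 3 insulin animals did not respond equally. Insulin animal 6 was the nearest to the saline mean in 26 of the 29 called genes (89.7%), while it was the nearest in 43.8% of all genes. Animal 4 was the farthest in 21 of the 29 (72.4%, against 33.2% of all genes), animal 5 in the other 8. The median distance from the saline mean over the called genes was 1.29 in animal 4, 1.29 in animal 5 and 0.93 in animal 6. Animal 6 also had the highest adipocyte markers of its group (9.25) and the lowest chromaffin markers (10.40), and the part of tissue content in its smaller distance was not tested. Since the genes were called on these animals, this order describes them and tests nothing.

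The promoters of the called genes were read from RefSeq (GRCm38.p6), in windows that reach from 250 bases before to 50 bases after the start of a gene, for 15691 of the genes tested and 23 of the 29 called. Both strands were searched for TGACG, the core of the cyclic AMP response element that CREB binds. It was present for 10 of 16 genes that rose (62.5%: Csrnp1, Dusp8, Ell2, Fosb, Midn, Nr4a2, Ptgs2, Tac1, Tmcc3 and Zfp948), for 1 of 7 that fell (14.3%: Ucp3) and for 27.1% of all genes with a window. The full palindrome TGACGTCA, which holds the core on both strands, was in the windows of Dusp8 and Ell2, in none of the 7 genes that fell and in 2.63% of all. Windows of the genes that rose held the AP-1 site TGANTCA in 2 cases, and 1 of the genes that fell held it, against 8.35% of all. The E-box CACGTG was found for Midn, Ptgs2 and Tac1 among the genes that rose and for Arrdc4 among those that fell, against 9.26% of all. The carbohydrate response element, a pair of E-box-like sequences 5 bases apart through which ChREBP and MondoA act, was found among the called genes only for Txnip and for 12 genes in all (0.0765%). The FOXO site GTAAACA was likewise found among the called genes only for Txnip, against 3.47% of all. A match describes these letters and is no evidence of a bound factor.

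The 250 bases before the start are shown for 4 genes that rose and hold the core and for the pair of arrestin genes that fell, each 5′ to 3′ on the strand of the gene, with every match to the motifs searched in capitals. Dusp8 (chr7:142095285-142095534, minus strand) and Ell2 (chr13:75707234-75707483, plus strand) hold the full palindrome, at 107 and 63 bases before the start in Dusp8 and at 198 bases in Ell2. Nr4a2 (chr2:57124004-57124253, minus strand) holds 4 copies of the core between 200 and 111 bases before the start, and Tac1 (chr6:7554811-7555060, plus strand) holds 2, at 197 and 43 bases, with its E-box at 61 bases.
Dusp8: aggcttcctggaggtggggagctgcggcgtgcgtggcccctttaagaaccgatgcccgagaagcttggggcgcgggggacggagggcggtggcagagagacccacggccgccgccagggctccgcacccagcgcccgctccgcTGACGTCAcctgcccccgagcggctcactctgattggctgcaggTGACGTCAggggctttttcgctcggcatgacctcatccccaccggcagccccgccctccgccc
Ell2: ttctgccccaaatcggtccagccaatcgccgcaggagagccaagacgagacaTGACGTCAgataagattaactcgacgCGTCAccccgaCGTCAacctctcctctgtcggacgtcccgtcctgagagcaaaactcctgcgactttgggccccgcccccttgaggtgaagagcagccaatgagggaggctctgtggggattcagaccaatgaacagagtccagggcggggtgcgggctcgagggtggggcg
Nr4a2: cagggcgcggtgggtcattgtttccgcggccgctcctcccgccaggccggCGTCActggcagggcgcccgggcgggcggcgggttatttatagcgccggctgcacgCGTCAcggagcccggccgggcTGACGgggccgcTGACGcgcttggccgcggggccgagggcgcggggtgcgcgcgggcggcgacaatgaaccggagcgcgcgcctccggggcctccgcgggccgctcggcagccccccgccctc
Tac1: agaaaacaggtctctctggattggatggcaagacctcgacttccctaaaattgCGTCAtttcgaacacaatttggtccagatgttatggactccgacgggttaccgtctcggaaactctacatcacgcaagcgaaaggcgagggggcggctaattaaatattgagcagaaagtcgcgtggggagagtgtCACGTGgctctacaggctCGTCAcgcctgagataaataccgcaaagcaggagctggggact
In Txnip (chr3:96557707-96557956, plus strand) the capitals mark the FOXO site at 121 bases and the carbohydrate response element at 85 bases before the start, and in Arrdc4 (chr7:68749239-68749488, minus strand) the E-box at 193 bases.
Txnip: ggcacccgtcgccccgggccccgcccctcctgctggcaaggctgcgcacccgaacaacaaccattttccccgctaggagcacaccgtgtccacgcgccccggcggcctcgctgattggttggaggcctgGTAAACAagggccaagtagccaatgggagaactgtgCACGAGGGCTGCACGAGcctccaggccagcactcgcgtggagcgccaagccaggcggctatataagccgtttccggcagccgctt
Arrdc4: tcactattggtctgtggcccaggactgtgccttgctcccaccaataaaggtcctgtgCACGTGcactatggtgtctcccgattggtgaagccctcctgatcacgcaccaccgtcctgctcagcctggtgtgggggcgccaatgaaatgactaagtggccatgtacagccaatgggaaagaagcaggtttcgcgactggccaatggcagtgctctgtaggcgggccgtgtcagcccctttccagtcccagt

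The same contrast in germ-free mice shows how far the response of colonized mice was shared. In the germ-free animals 85 genes were called (0.436%), and 7 of the 29 genes called in colonized mice were among them (Ptgs2, Tac1, Fosb, Mest, Tmcc3, Midn and Adm). The direction was the same for 28 of the 29, Parp16 being the exception with -1.07 ± 0.15 in the colonized animals and 0.06 ± 0.15 in the germ-free ones. Germ-free insulin and saline arrays were separated in that direction for 19 of the 29. An unadjusted p under 0.05 in that direction was reached by 16, against 8.29% of all genes in either direction. The shares of all genes with the same sign or with separated germ-free arrays were not counted, so those counts have no background here. In the colonized direction the median change was 1.20 for colonized and 0.40 for germ-free animals, and 25 of the 29 genes had the smaller change in germ-free mice. Since these genes were picked for a large change in colonized mice, a smaller change elsewhere is partly built in.

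Tested directly, the difference between the insulin effects (germ-free effect minus colonized effect) was called for 0 of the 29 genes by limma, with 17 at an unadjusted p under 0.05 and adjusted p values from 0.0838 to 0.901. In all genes it was called for 7 (0.0359%), and 1941 (9.95%) had an unadjusted p under 0.05. Dusp10 and Parp16 had the smallest adjusted p. Dusp10 had a change of 1.34 ± 0.16 in the colonized animals, against 0.11 ± 0.16 in the germ-free ones, which left a difference of -1.23 ± 0.23 (adjusted p = 0.0838). For Tent5a the changes were 1.58 ± 0.16 (colonized) and 0.40 ± 0.16 (germ-free), with a difference of -1.18 ± 0.22 (adjusted p = 0.0883). Of the peptide genes, Prl8a2 had changes of 2.35 ± 0.38 (colonized) and 0.27 ± 0.38 (germ-free, difference -2.08 ± 0.54, adjusted p = 0.224), while Tac1 had 2.43 ± 0.41 and 2.75 ± 0.41 in the same order (difference 0.32 ± 0.58, adjusted p = 0.891). Adm fell in both states, by 1.31 (colonized) and by 1.90 (germ-free).

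The saline means of the 2 states lay apart in several of these genes, a comparison that was not tested. Egr1 averaged 11.32 after insulin and 10.12 after saline in colonized mice, against 11.21 and 11.06 in germ-free mice. Ell2 averaged 9.51 after insulin and 8.46 after saline in colonized mice, against 9.99 in both germ-free groups. Among the genes that fell, Txnip averaged 11.07 after insulin and 12.24 after saline in colonized mice, against 11.16 and 11.45 in germ-free mice. The levels after insulin were thus close in both states for Egr1 and Txnip, and the saline levels were apart. Adipocyte markers averaged 6.94 to 9.25 in colonized insulin animals and 7.25 to 10.68 in colonized saline animals, against 10.30 to 10.71 in germ-free insulin animals and 9.24 to 10.01 in germ-free saline animals. The median of the negative control probe sets was 4.70 to 4.83 on the colonized arrays and 5.30 to 5.54 on the germ-free arrays, so the floor of the scale was not the same, and its part in the smaller changes of dim genes was not tested. Array processing and colonization state cannot be told apart in that respect or in the saline levels above.

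**Figure D4:**
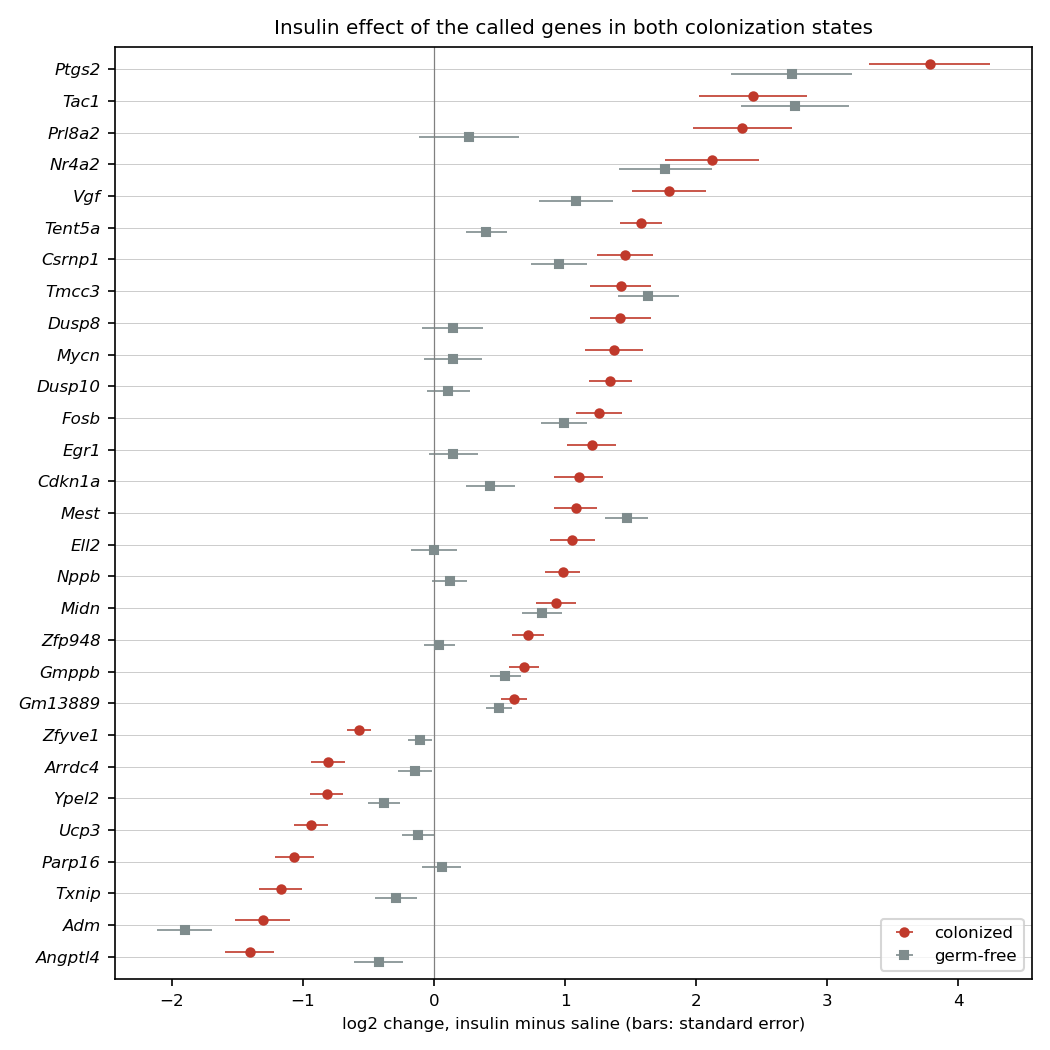
Log2 change after insulin of the 29 called genes in colonized mice (red circles) and germ-free mice (grey squares), with bars of 1 standard error from limma (n = 3 arrays a group). Tac1, Tmcc3, Mest and Adm had the larger change in germ-free mice, and Dusp8, Dusp10, Mycn, Egr1 and Ell2 lie near 0 there.

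**Figure D5:**
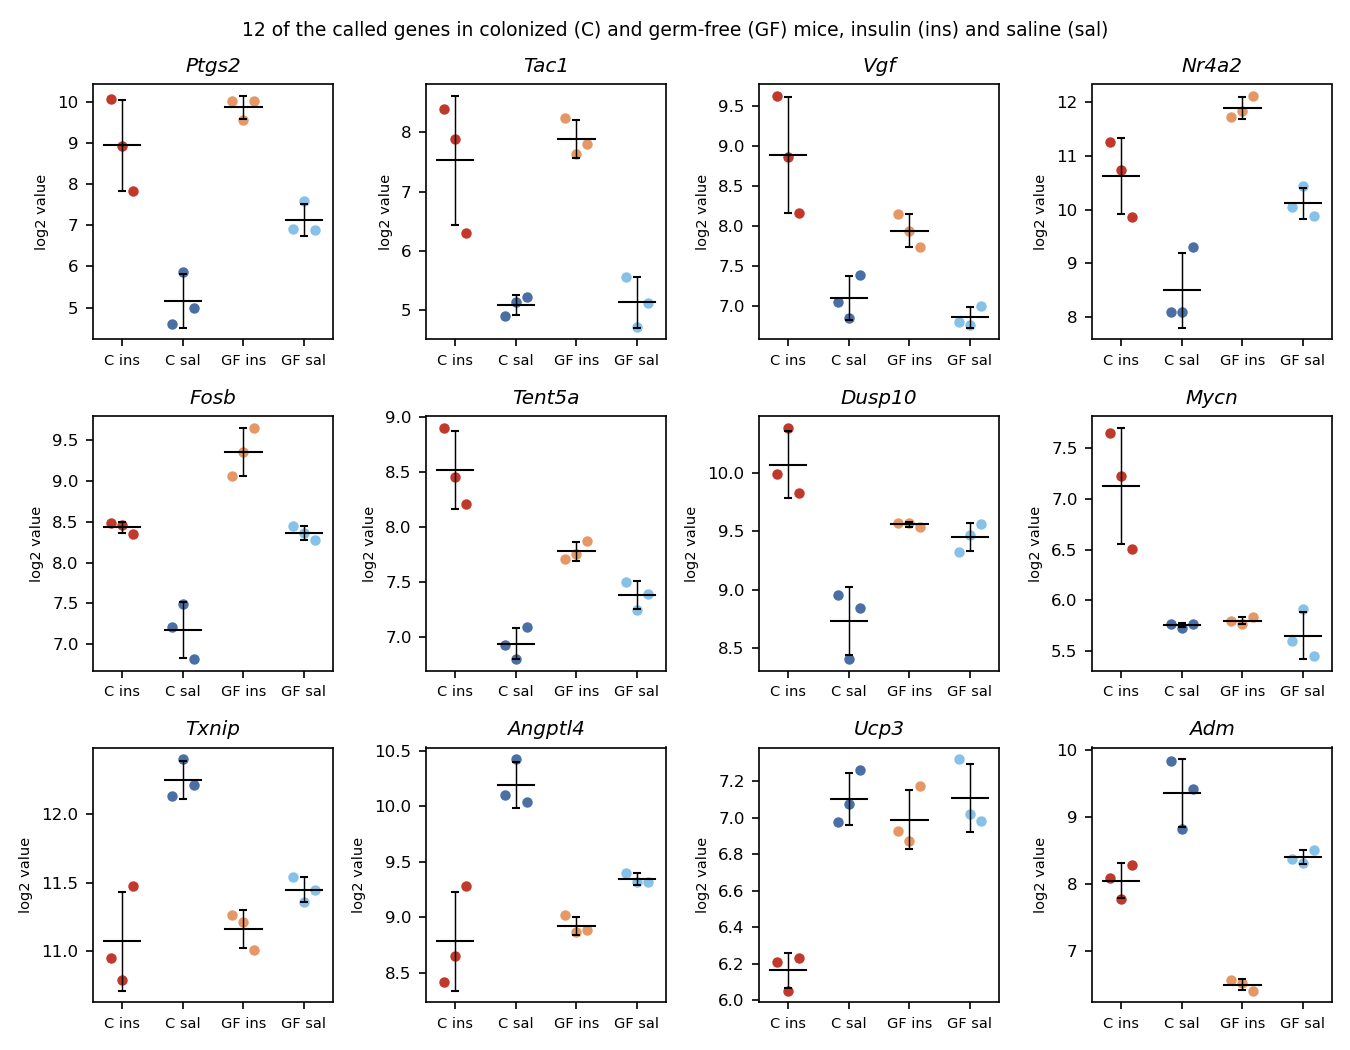
Log2 values of 12 of the called genes in the 4 groups of 3 animals, colonized (C) and germ-free (GF), insulin left of saline, with the vertical axis fitted to each gene. Points are animals, lines are group means and bars are 1 SD, and the mean of Txnip in germ-free saline animals lies between the means of the colonized insulin and colonized saline animals.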

How the data were processed

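Total RNA of the dissected adrenal medulla of 12 male mice was hybridised to Affymetrix arrays. The authors deposited log2 values (2.46 to 13.9). Per the submitters' processing notes these came from RMA, which corrects background, normalizes by quantiles and summarises each probe set. The notes also list limma, no version is given for either, and no source used here states whether all 12 arrays were normalized together. Of 28846 rows, 19572 were paired with 1 gene symbol and 9274 with none. A gene was taken from its probe set of highest mean over the 12 arrays (19505 genes, 55 with more than 1 probe set). The rows without a symbol were not tested, and 5222 negative control rows among them gave the floor of each array.

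One mean per group was fitted to all 12 arrays with limma 3.58.1 in R 4.3.3 (lmFit and eBayes, with 8 residual degrees of freedom and a prior worth 4.08). The contrasts were insulin minus saline in colonized mice, the same in germ-free mice and their difference. Benjamini-Hochberg adjustment ran over 19572 probe sets, and no dim values were removed. Genes named were all called genes with informative symbols, the 10 of largest change and the 10 of lowest p that were not called, up to 4 members of largest change of each list and a fixed set of adrenal genes. Further members given by value (Gem, Ccn2, Klf10, Rasd1, Slc2a1, Slc2a3, Hk2, Pfkfb4, Aldoc, Gbe1, Pfkl, Ppp1r3d and Ppp1r3b) were chosen after their values were seen. So were Slc5a1, Gh, Adarb1 and Slc25a20, and the numbers of called members without saline animal 2 were added then too. The comparison, the gene lists and the markers were chosen with earlier results of these data known. Lists are described by counts and medians and were not tested as sets. Promoter sequences and gene names come from RefSeq (GRCm38.p6), and no source used here names the build behind the array annotation. The fit was tested on simulated data. Precision is limited by the number of arrays. Alternatives were other rows, filters, normalizations, variance models, covariates and thresholds and leaving out each array in turn.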

Additional observations from a re-analysis of the deposited data

Results flagged for a closer look

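The interaction term of the limma fit called a difference of the insulin effect between the colonization states for 7 genes, 4 of them intestinal epithelium markers. Adarb1 (0.57 in colonized and -0.96 in germ-free mice) and Slc25a20 (-0.55 and 0.51 in the same order) were among the 7 too. Slc25a20 is on the list of PPAR targets, and neither gene is on a marker list or had a value below the negative controls. Their differences were -1.52 ± 0.22 and 1.06 ± 0.15 (limma adjusted p = 0.0462 for each). The signs of Slc25a20 were also those of fat markers. Median changes of general adipocyte markers were -1.10 in colonized and 0.68 in germ-free mice, and those of brown fat markers -1.32 and 1.45. Slc5a1 and Gh are given by animal. Slc5a1, the intestinal glucose cotransporter, was at 4.69, 4.29 and 4.49 after insulin and at 4.18, 3.66 and 4.48 after saline in colonized mice, against 4.45, 4.49 and 4.61 after insulin and 8.26, 6.66 and 7.08 after saline in germ-free mice. Its insulin effect was 0.38 ± 0.33 in colonized and -2.81 ± 0.33 in germ-free mice, and the germ-free effect minus the colonized effect was -3.20 ± 0.46 (adjusted p = 0.0462). All 6 colonized values and all 3 germ-free insulin values were under the median of the negative controls. With these set at the control level, the germ-free effect was -1.91 and the difference -1.91. Markers of intestinal epithelium (12 genes) averaged 5.02 to 5.15 on all 6 colonized arrays and 5.07 to 5.33 in germ-free insulin animals, against 7.44 to 9.40 in germ-free saline animals. Gh, growth hormone, was at 5.70, 5.76 and 5.69 after insulin and at 5.86, 5.17 and 5.63 after saline in colonized mice, against 10.31, 11.43 and 12.06 after insulin and 6.11, 7.81 and 6.43 after saline in germ-free mice. Its insulin effect was 0.16 ± 0.44 in colonized and 4.48 ± 0.44 in germ-free mice, a difference of 4.32 ± 0.63 (adjusted p = 0.0462). Pituitary hormone genes (7 genes) averaged 5.13 to 5.43 on the colonized arrays, 6.77 to 7.71 in germ-free insulin animals and 5.33 to 5.75 in germ-free saline animals. The part of other tissues in these differences was not tested.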

How the results depend on the processing

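The count of genes called for insulin in colonized mice (29) was 29 with 1 probe set per gene in the fit, 39 after a second quantile normalization and 38 after median centring, and all 29 were among the calls in each. It was 49 without dim probe sets, 50 with the trend and robust options, 66 with array weights, 73 at an adjusted p under 0.10, 12 with all rows of the table, 5 with an adipocyte marker covariate and 1 at an adjusted p under 0.01. It was 0 by limma for the 6 colonized arrays alone and with an adrenal cortex covariate, with 1373 and 1347 genes at an unadjusted p under 0.05. Leaving out 1 array at a time gave 1 to 70 calls. The calls with the adipocyte covariate were Tent5a, Dusp10, Ptgs2, Angptl4 and Adm. Without saline animal 2, 14 of the 28 named calls held. The difference of the insulin effects (7 calls) gave 10 calls after a second quantile normalization, 7 with the trend and robust options and with 1 probe set per gene, 2 after median centring, 148 with array weights, 49 at an adjusted p under 0.10 and 1 each with all rows, an adrenal cortex covariate, an adipocyte covariate and an adjusted p under 0.01. Without dim probe sets it gave 0 by limma (1210 at an unadjusted p under 0.05), and leaving out 1 array at a time gave 1 to 83. The cause was not tested. Of the 28 named calls, 7 had no value without dim probe sets (Gmppb, Mycn, Nppb, Prl8a2, Tac1, Ucp3 and Ypel2). No named call changed sign where it had a value under the 24 settings, and 307 of these values kept their call while 358 lost it.

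Among genes not called, signs turned for Slc6a2 with array weights (0.11), the cortex covariate (0.65) and without saline animal 2 (0.099, with -1.92 to 0.099 over the arrays left out), and for Gh with the cortex covariate (-0.32) and without saline animal 2 (-0.029, range -0.029 to 0.31). With the cortex covariate they also turned for Ptgds (-0.18), Sv2c (0.0047) and Slc5a1 (-0.015). Penk turned with the adipocyte covariate (0.14) and without saline animal 2 (range -0.95 to 0.050). Ddc turned with the adipocyte covariate (-0.11), without saline animal 3 (-0.16) and without insulin animal 4 (-0.12, range -0.16 to 0.11). No paired analysis was possible because the animals are numbered 1 to 12 and no number is shared between groups.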
